A study of Mus musculus with 6 samples.

Results

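The regions described here are 1573 stretches of the mouse genome at the ends of protein-coding genes that carried a peak of trimethylated lysine 4 of histone H3 (H3K4me3) in both libraries of untreated cochlear progenitor cells and in neither library of neomycin-treated cells. Peaks of the 4 libraries that overlapped by at least 1 bp on chromosomes 1 to 19 and X were merged into 24104 regions, of which 16011 lay within 1 kb of the start or end of a protein-coding gene in the mm10 build. The 1573 untreated-only regions were 9.82% of these gene-end regions. The regions were chosen by the presence or absence of a listed peak in these 4 libraries, so their lengths and heights in the same libraries are given as a description, without a test.

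The series holds 6 samples of Lgr5+ progenitor cells, 4 H3K4me3 libraries and 2 input libraries, and the inputs were not analysed here. Both groups came from C57BL/6 mice carrying Lgr5-EGFP-creERT2, in which the green fluorescent reporter sits in the Lgr5 locus, taken at postnatal day 0 to 3 and of either sex. Dissected cochleae were cultured in DMEM/F12 medium with B27, N2, IGF-1, heparin sulfate, bFGF and EGF, and 2 H3K4me3 libraries came from cultures given neomycin for 12 h and 2 from untreated ones. Cells were dissociated and sorted by green fluorescence, so that the reporter, the culture medium and the sort were shared by all groups. Separate cultures or animals for the 2 replicates of a group are not stated by the labels, so the spread between them may be technical. The labels name the same trimethyl-specific antibody for the 4 libraries, while the names of the 2 untreated peak lists give the dimethylated form of the residue; whether the antibody differed cannot be settled from the lists, and it cannot be told apart from the treatment. The Lgr5 gene itself carried 1 and 2 peaks in neomycin replicates 1 and 2 and 2 and 1 peaks in untreated replicates 1 and 2, and Sox2, a marker of progenitors and supporting cells, carried 1, 1, 2 and 2 in the same order. Of the endothelial markers, 20.0%, 20.0%, 20.0% and 10.0% had a peak at an end in this order, with Kdr, Flt1 and Cldn5 marked in at least 1 library and Pecam1 and Cdh5 in none, and of the 13 markers of macrophages and blood Klf1 alone was marked, in 3 of the 4 libraries.

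Trimethylation of H3 lysine 4 marks the nucleosomes around the starts of active or poised genes. It is laid down by SET1 and MLL enzymes, which are drawn to CpG-rich promoters through CXXC-domain proteins and to transcribed starts through RNA polymerase II, and the first nucleosomes inside the gene usually carry the most of it. Lgr5+ cells of the newborn cochlea are supporting cells in which Wnt signalling is active and from which hair cells can form. Neomycin is an aminoglycoside antibiotic that kills hair cells.

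The promoters under the untreated-only regions were rich in CpG dinucleotides. Of the 1573 regions, 740 touched at least 1 of the 300-base promoters in a RefSeq table for GRCm38.p6, which runs from 250 bases before to 50 bases after each transcript start. These were 834 promoters of 769 genes. Their median GC content was 68%, against 66.3% at regions marked in all 4 libraries, 62.7% at neomycin-only regions and 56.7% over the whole table. A median of 29 CpG was found in them, against 27, 23 and 13, and 89.2% were CpG-rich (observed over expected CpG above 0.6 and GC content above 50%), against 87.0%, 79.6% and 45.4%. The libraries differed in the same measure: the promoters touched by any peak had a median GC content of 65.3% in both neomycin libraries and of 66.0% and 66.7% in the untreated ones. The part of this difference between libraries in the values of the untreated-only regions was not tested.

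A set of 6 promoters shows the range. They are the 250 bases before a transcript start, written 5′ to 3′ on the strand of the gene, with every CpG in capitals. Of the 70 promoters that an untreated-only region covered over these 250 bases in full, Med13l, Lcor and Igf2bp2 belonged to the regions with the highest pileup in their weaker library, Med13l also had the most CpG (51), and Ndrg2 had the fewest (10). Coch and Atoh1 are shown as genes of the cochlea; both untreated-only regions of Atoh1 lay inside the gene and covered none of its upstream bases.
Med13l (chr5:118560469-118560718, plus strand, 51 CpG): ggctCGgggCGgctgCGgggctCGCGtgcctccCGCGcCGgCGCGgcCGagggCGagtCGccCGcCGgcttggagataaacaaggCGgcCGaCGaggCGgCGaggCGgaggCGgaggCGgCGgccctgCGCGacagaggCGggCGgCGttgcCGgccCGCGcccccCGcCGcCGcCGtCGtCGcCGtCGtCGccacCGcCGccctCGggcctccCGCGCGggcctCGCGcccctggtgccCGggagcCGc
Lcor (chr19:41482432-41482681, plus strand, 45 CpG): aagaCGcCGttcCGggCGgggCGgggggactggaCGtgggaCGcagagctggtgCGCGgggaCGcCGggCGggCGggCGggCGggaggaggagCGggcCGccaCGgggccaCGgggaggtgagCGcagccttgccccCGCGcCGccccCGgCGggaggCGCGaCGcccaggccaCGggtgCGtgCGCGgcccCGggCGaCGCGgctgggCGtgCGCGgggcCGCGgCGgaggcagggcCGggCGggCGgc
Igf2bp2 (chr16:22163300-22163549, minus strand, 40 CpG): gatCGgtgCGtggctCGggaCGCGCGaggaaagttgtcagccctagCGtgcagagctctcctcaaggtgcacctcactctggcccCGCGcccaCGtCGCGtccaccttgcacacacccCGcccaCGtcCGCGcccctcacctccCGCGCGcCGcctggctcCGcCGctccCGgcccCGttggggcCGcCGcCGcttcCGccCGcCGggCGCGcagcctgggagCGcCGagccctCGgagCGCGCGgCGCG
Ndrg2 (chr14:51914005-51914254, minus strand, 10 CpG): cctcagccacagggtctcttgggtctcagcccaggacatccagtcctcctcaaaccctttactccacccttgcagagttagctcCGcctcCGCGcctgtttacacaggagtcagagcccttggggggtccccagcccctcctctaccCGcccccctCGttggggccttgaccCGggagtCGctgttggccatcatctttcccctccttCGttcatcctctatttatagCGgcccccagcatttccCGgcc
Coch (chr12:51593091-51593340, plus strand, 24 CpG): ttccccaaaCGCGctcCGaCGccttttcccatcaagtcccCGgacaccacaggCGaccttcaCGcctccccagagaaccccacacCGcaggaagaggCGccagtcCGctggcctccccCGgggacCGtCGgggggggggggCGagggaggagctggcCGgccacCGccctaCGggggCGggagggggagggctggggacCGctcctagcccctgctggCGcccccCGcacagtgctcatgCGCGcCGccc
Atoh1 (chr6:64728875-64729124, plus strand, 14 CpG): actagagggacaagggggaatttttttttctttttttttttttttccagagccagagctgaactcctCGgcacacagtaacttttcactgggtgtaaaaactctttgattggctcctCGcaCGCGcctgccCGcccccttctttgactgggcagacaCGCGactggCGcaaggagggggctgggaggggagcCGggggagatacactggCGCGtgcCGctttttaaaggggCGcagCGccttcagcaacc

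Motifs were searched by their letters on both strands of the 300-base promoters. The GC box (GGGCGG) stood in 81.3% of the promoters at untreated-only regions, in 75% of those at regions marked in all 4 libraries and in 46.7% of the whole table. This motif contains a CpG. The ETS motif (CCGGAAG), which also contains a CpG, stood in 19.1%, 19.7% and 11.7% in the same order. By contrast the TATA box (TATAAA) stood in 5.40%, 5.77% and 12.7%, and the CCAAT box (CCAAT) in 26.4%, 30.5% and 38.5%. Of the printed promoters, Ndrg2 held a TATA box and a GC box, Atoh1 a CCAAT box and a GC box, and the other 4 a GC box. The E-box CAGATG, 1 of the forms bound by proneural factors such as ATOH1, stood in 6.59% of the promoters at untreated-only regions, 9.99% at regions of all 4 libraries and 14.4% of the table. Few of the promoters were poor in CpG: 23 (2.76%) held fewer than 10, and 176 (21.1%) held at least 40.

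Untreated-only was the fifth most frequent of the 15 peak patterns at gene ends. Regions with a peak in all 4 libraries numbered 2262, those in untreated replicate 1 alone 2113, in neomycin replicate 1 alone 1970 and in neomycin replicate 2 alone 1725. The mirror pattern, with peaks after neomycin in both replicates but none in untreated cells, was found at 424 gene-end regions (2.65%). Untreated-only regions were thus 3.71 times as many as neomycin-only ones (95% interval 3.33 to 4.13, for counting error only). Away from gene ends, 563 of 8093 regions (6.96%) were untreated-only. By chromosome, the share of gene-end regions ran from 6.85% on chromosome 7 to 12.6% on chromosome 18, with 12.4% on X. Each library decided much of the count. With 1 library left out, and its group then judged by the other library alone, the number became 2989 without neomycin replicate 1, 2823 without neomycin replicate 2, 2510 without untreated replicate 1 and 4181 without untreated replicate 2, and the ratio to neomycin-only regions became 1.38, 1.13, 2.22 and 6.96. Relabelling 2 against 2 libraries cannot give a p below 0.333, so no test of the count was made.

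**Figure D1:**
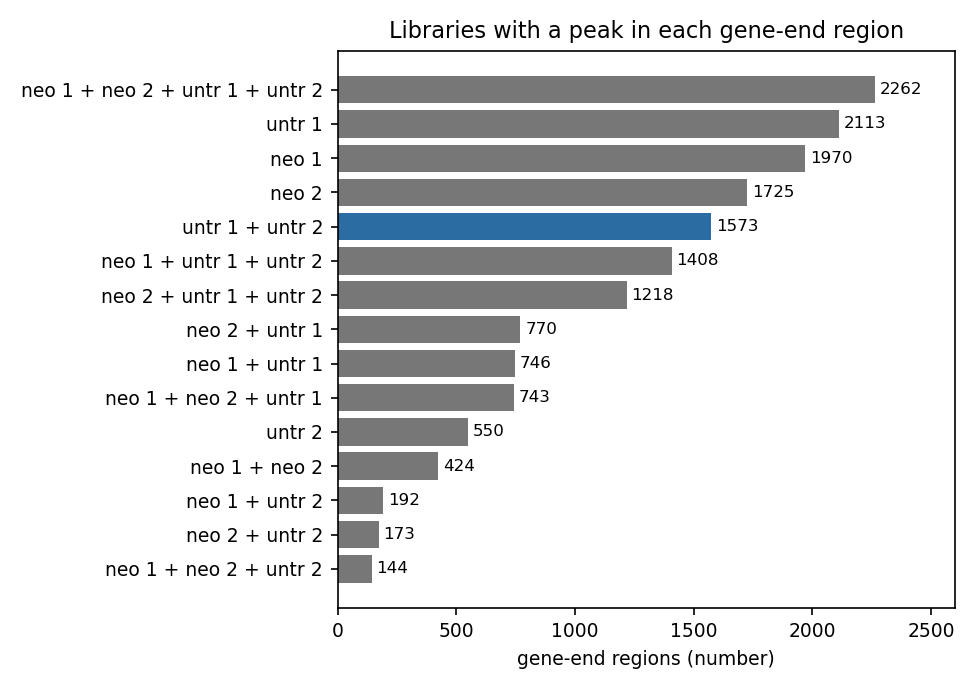
Number of gene-end regions (horizontal axis) for each combination of libraries with a peak (neo, neomycin; untr, untreated; 1 and 2, replicates). The blue bar marks the 1573 untreated-only regions, between the 1725 regions of neomycin replicate 2 alone and the 1408 of neomycin replicate 1 with both untreated libraries.

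The 4 lists were not alike in the peaks they held. On chromosomes 1 to 19 and X the neomycin lists held 13815 and 11332 peaks, and the untreated lists 15709 and 10358. The median peak length was 70 and 141 bp in neomycin replicates 1 and 2 and 310 and 339 bp in untreated replicates 1 and 2, and the shortest peak was 48, 110, 187 and 234 bp. Both neomycin lists thus held shorter peaks than both untreated lists, and length enters the merging of peaks. The part of peak length in the count of untreated-only regions was not tested. The median summit pileup, which is the number of fragments stacked at the highest base of a peak, was 7 and 11 in the neomycin lists and 13 and 11 in the untreated lists.

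Untreated-only regions were of middling length and height for their libraries. Their median size was 440 bp (quartiles 338 and 574 bp), with the smallest at 234 bp and the largest at 1587 bp, against a median of 311 bp over the 16011 gene-end regions, many of which held a peak of a single library. Peaks covered a median of 355 bp of a region in untreated replicate 1 and 333 bp in replicate 2, against 346 and 358.5 bp over gene-end regions with a peak in that library. The median summit pileup was 14 (range 8 to 37) in replicate 1 and 11 (range 7 to 33) in replicate 2, and the authors' fold enrichment had medians of 8.01 and 7.22. These heights were close to the medians of the full lists. Pileup was above the list median in both libraries at 545 regions (34.6%), and in the top 10% of both lists at 31 (1.97%). Most regions held a single peak per library, in 95.5% of cases for replicate 1 and 97.3% for replicate 2.

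Gene-end regions marked in all 4 libraries were longer and slightly higher. Their median size was 614 bp, and their untreated peaks covered medians of 485 and 435 bp with summit pileups of 15 and 12. Their neomycin peaks covered 111 and 189 bp with pileups of 7 and 11. Neomycin-only regions were the shortest of these classes, with a median size of 173 bp and peaks of 79 and 140.5 bp. Size is partly set by how many libraries are merged, since each further peak can widen a region.

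**Figure D2:**
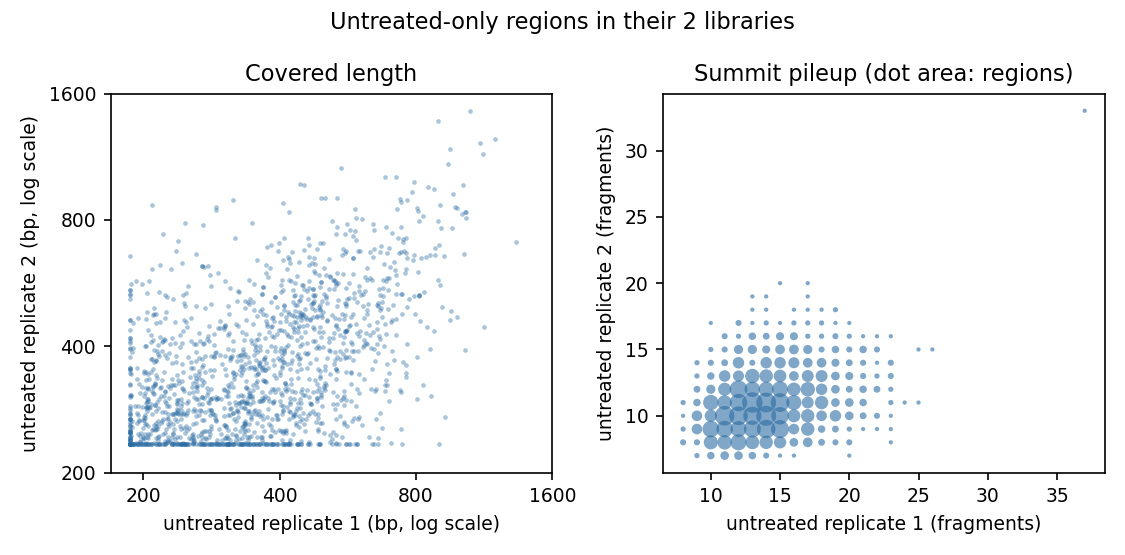
Covered length (left, bp, both axes on a log scale) and summit pileup (right, fragments) of the 1573 untreated-only regions in untreated replicate 1 (horizontal) and untreated replicate 2 (vertical); on the right the area of a dot grows with the number of regions. The rows of points at 187 and 234 bp are the shortest peaks of the lists, and the isolated dot at pileups of 37 and 33 is the region inside Mid1 near its end.

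The untreated libraries placed their summits close together. Summits of the same region lay a median of 66 bp apart (quartiles 30 and 136 bp), at most 100 bp apart in 1033 regions (65.7%) and at most 300 bp apart in 93.3%. At regions marked in all 4 libraries the untreated summits lay a median of 88 bp apart, and 54.1% were within 100 bp. Those regions were longer (median size 614 against 440 bp), which leaves more room between summits. The part of length in this difference was not tested. Over the 1573 regions, covered length on the log2 scale had a Pearson r of 0.499 between the libraries, and summit pileup one of 0.289. These are descriptions over regions of the same 2 libraries, whose lower limits on length and height narrow the range.

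Summits sat just inside genes. The nearest gene end was a start for 1218 regions (77.4%), the far end of a gene for 22 and of unknown strand for 333 (21.2%), since the promoter table gave a strand for 17274 of 21631 protein-coding genes. Of the 1236 regions within reach of a known start, the summit lay inside the gene in 85.8% in replicate 1 and 86.5% in replicate 2. Median positions were 247 bp (quartiles 152 and 449 bp) and 260 bp (quartiles 164 and 452 bp) inside. In regions of all 4 libraries these medians were 300 and 306 bp for the untreated libraries and 350.5 and 338 bp for the neomycin libraries, and 92.3% and 91.7% of untreated summits lay inside the gene. Starts on both strands were within reach of 119 untreated-only regions (7.57%), against 9.46% of regions marked in all 4 libraries.

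**Figure D3:**
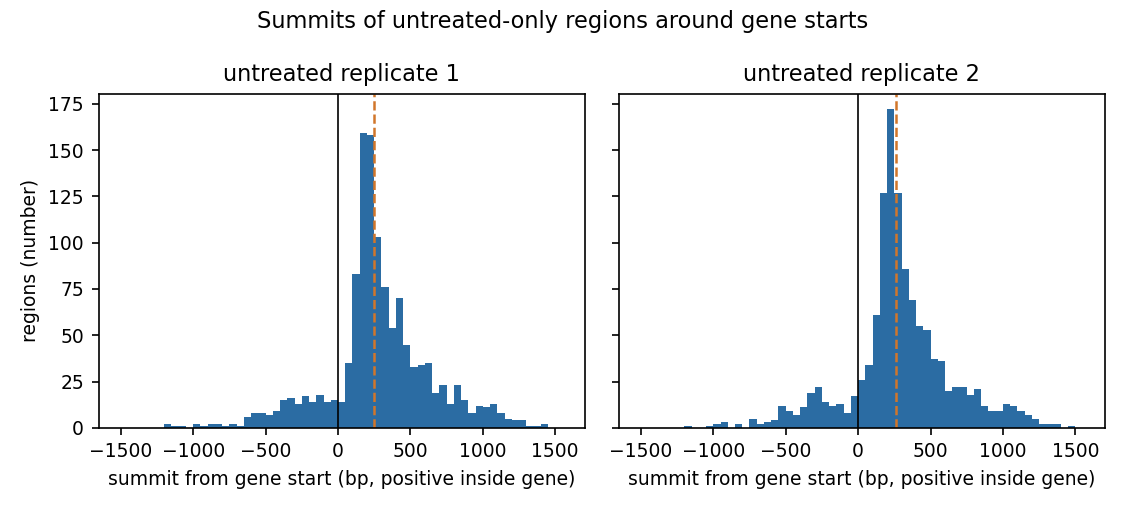
Summits of untreated-only regions with a known gene start, by position from the start (bp, positive inside the gene), in bins, for untreated replicates 1 and 2 (vertical axis, number of regions). Dashed lines mark the medians at 247 and 260 bp, inside the gene, and a low shoulder lies before the start.

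Many untreated-only regions had a neomycin peak close by, and most of the others had none for a long way. The median distance to the nearest neomycin peak was 4772 bp (quartiles 247 and 51144 bp). A neomycin peak lay within 100 bp of 153 regions (9.73%), within 1 kb of 723 (46.0%) and within 10 kb of 846 (53.8%), so that few distances fell between 1 kb and 10 kb. Both neomycin libraries had a peak within 1 kb of 251 regions (16.0%). Gene-end regions with a peak in a single untreated library had a neomycin peak within 1 kb at much the same rate, 49.0% for replicate 1 alone and 48.2% for replicate 2 alone. For neomycin-only regions an untreated peak lay within 1 kb of 61.6%.

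**Figure D4:**
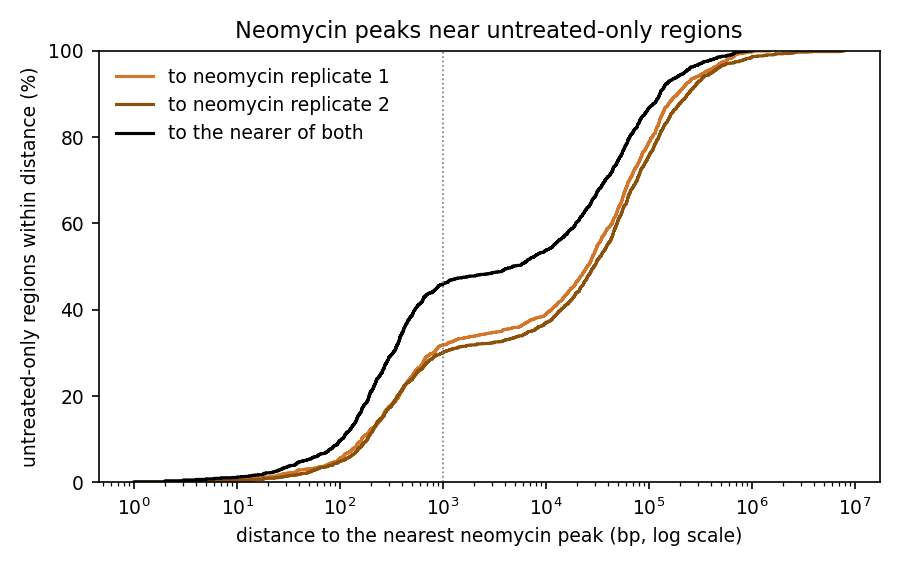
Cumulative percentage of untreated-only regions (vertical axis) with a neomycin peak within a given distance (horizontal axis, bp, log scale), for each neomycin library and for the nearer of both. The black curve reaches 46.0% at 1 kb, stays nearly flat to 10 kb (53.8%) and rises again.

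Where the start was known and a neomycin peak lay within 1 kb, that peak was further into the gene at 337 of 580 regions (58.1%) and on the other side at 243 (41.9%). In the former, neomycin summits lay a median of 687 bp inside the gene and those of untreated replicate 1 at 197 bp. In the latter, neomycin summits lay before the start, at a median position of -200 bp, and untreated replicate 1 summits at 359 bp inside. The rule for these regions forces a nearby neomycin peak to flank them, so the separation itself is not a result. The 815 regions with no neomycin peak within 2.5 kb were as high as the 723 with one within 1 kb, with medians of 14 and 11 in the untreated libraries in both sets. Their peaks covered 374 and 346 bp, against 341 and 316 bp, and 89.5% and 91.0% of their summits lay inside the gene, against 82.1% and 81.9%.

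At the limits of the rule the regions differed by a few bases. The region near Fndc3b lay 1 bp from a peak of neomycin replicate 1, the region near Dusp26 1 bp from a peak of neomycin replicate 2, and the region at Elf1 and Wbp4 2 and 39 bp from peaks of both. The regions farthest from a gene end were those of Msl3l2 and Cep120, at 997 bp, and of Ube2ql1, at 996 bp. Just outside, otherwise alike regions lay 1007 bp from Cnksr2, 1008 bp from Nfib and 1010 bp from Tbx2. In the Cnksr2 region untreated peaks covered 882 and 374 bp with pileups of 15 and 10, values within the range of the untreated-only regions.

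The highest summits in the weaker library were found at genes of many kinds. The region with the highest pileup lay inside Mid1, 763 bp before its end (chrX:169989190-169990035), which encodes a microtubule-associated ubiquitin ligase and spans the pseudoautosomal boundary in this strain. Its pileups were 37 in replicate 1 and 33 in replicate 2, but its fold enrichments, 2.94 and 3.15, were the lowest of the 1573 regions. The height of this region was thus not matched by its enrichment over the local background. At the start of Arhgdia, an inhibitor of nucleotide exchange on small GTPases, pileups were 19 and 18 with fold enrichments of 11.1 and 11.7. Pex6, an ATPase of peroxisome biogenesis, had 19 and 17, and Dgat1, an enzyme of triglyceride synthesis, 20 and 17. These 3 genes had high pileup and high enrichment together, and their nearest neomycin peaks were 7526, 6535 and 11566 bp away. Iws1, a transcription elongation factor, had pileups of 19 and 16 and no neomycin peak within 95018 bp. Rassf3 (23 and 16), Ipo11 (22 and 16), Cep131 and Gapvd1 (20 and 16 each), and Slc24a3 and Med13l (19 and 16 each) were also in this set. Of them Slc24a3, a sodium-calcium exchanger, had a peak of neomycin replicate 2 at 6 bp, and Med13l, a subunit of the Mediator kinase module, one 217 bp away.

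Ranked by covered length in the library where it was shorter, the first 6 regions were at Trio, Pkp4, Vps9d1, Lcor, Inafm2 and Plcb4. Trio, an exchange factor for small GTPases, was covered over 1194 bp in replicate 1 and 1246 bp in replicate 2, and Lcor, a nuclear receptor corepressor whose promoter is printed above, over 1053 and 1454 bp. For Pkp4, a catenin-related protein of cell junctions, the values were 1125 and 1151 bp. At Vps9d1 and Zfp276, which share the region, they were 1108 and 1218 bp, at Plcb4, a phospholipase C, 949 and 1179 bp, and at Inafm2 1017 and 968 bp. Peaks were broken into pieces at some regions: 3 peaks in replicate 1 faced a single peak in replicate 2 at Spock2 and Msrb3, and 2 faced 2 at Lrig3, Marveld2, Btbd3 and Pmepa1.

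Other regions stood far from any neomycin peak. At Galnt13, which encodes an enzyme of mucin-type glycosylation, the nearest were 1000111 bp away in replicate 1 and 1000265 bp in replicate 2. Rprm, a cell cycle arrest gene, had 892116 and 893440 bp, and Ndn, an imprinted gene of the MAGE family, 685314 and 863488 bp. Plcb4, and Xk and Map7d2 on chromosome X, were the other regions of this kind, the nearest neomycin peaks lying 727860, 866411 and 799641 bp away. Heights there were mostly low: pileups were 13 and 8 at Galnt13, 10 and 9 at Rprm, 10 and 10 at Ndn, 8 and 9 at Xk and 10 and 11 at Map7d2, against 18 and 12 at Plcb4. Distances of this size also depend on how few genes lie around.

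The untreated-only regions belonged to 1718 of the 11516 genes with any gene-end region, which is 14.9%, the share against which the gene lists below are read. Of these genes, 890 (51.8%) had no neomycin peak at either end and 769 (44.8%) none in the gene or within 1 kb of it. A further 328 (19.1%) had peaks of both neomycin libraries elsewhere at an end, so those genes were marked in both conditions. The rule keeps neomycin peaks out of the untreated-only regions, so these shares are partly set by it. The matching shares of all 11516 genes are not given beside them, so they are not read as particular to these genes. The same limits hold for such counts in the lists below. Neomycin-only regions belonged to 4.46% of the genes. The lists were chosen with earlier results known and share genes such as Id3, Hey2, Fgfr3 and Sp7, so counts are given without a test. Lists of gene families were built by symbol, so they can hold genes of another function.

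Among cochlear cell types, supporting and progenitor cell markers had untreated-only regions at 6 of 29 genes with a gene-end region (20.7%). At the start of Id3, an inhibitor of basic helix-loop-helix factors and a target of BMP signalling, untreated peaks covered 543 and 373 bp with pileups of 22 and 15. Peaks of neomycin replicates 1 and 2 lay 533 and 1067 bp away at the same gene, where each neomycin library had 1 peak. Hey2, a repressor downstream of Notch, had pileups of 13 and 9, Isl1, a LIM homeodomain factor, 12 and 13, and Prdm16, a zinc finger regulator, 11 and 14. Fgfr3, an FGF receptor of supporting cells, had 9 and 9, and Bdnf, a neurotrophin, 10 and 8. Each of the 6 genes also held a peak of at least 1 neomycin library in the gene or within 1 kb of it. Among all genes with an untreated-only region, 44.8% held none. Eya1, a cofactor of sensory progenitors, was not in the set: peaks of 358 and 370 bp in the untreated libraries overlapped a 56 bp peak of neomycin replicate 1.

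Hair cell markers had untreated-only regions at 3 of 16 such genes (18.8%). Atoh1, the basic helix-loop-helix factor that sets hair cell fate, had them at 2 places. At chr6:64729304-64729590, inside the gene, untreated peaks covered 207 and 287 bp with pileups of 12 and 11, and their summits, 271 and 276 bp from the start, were 5 bp apart. At chr6:64730088-64730481 they covered 394 and 275 bp with pileups of 16 and 10. No neomycin peak lay within 1048 kb in replicate 1 or 3.93 kb in replicate 2. Atoh1 was thus marked at moderate height in both untreated libraries and listed in neither neomycin library. Tbx2, a T-box factor of inner hair cells, also had 2 regions, with pileups of 19 and 12 in the first and 14 and 16 in the second, and Insm1, a zinc finger factor of outer hair cells, had pileups of 10 and 9 and a peak of neomycin replicate 1 at 146 bp. Summed over the hair cell list, the libraries held 5 and 5 peaks with neomycin and 19 and 11 without. These lay at 12.1%, 15.2%, 39.4% and 21.2% of its 33 genes in the same order of libraries. Atoh1 held 2 and 3 of the untreated peaks and Tbx2 3 and 3, with no neomycin peak at their ends. The rule chose the untreated-only regions of both genes by this pattern, so the sums partly restate it. Myo7a, Otof, Slc26a5 and Tmc1, also on that list, had no peak at an end in any library.

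Genes of mesenchyme and fibrocytes had untreated-only regions at 4 of 8 (50.0%), the highest share of the cell type lists. Coch, which encodes the matrix protein cochlin, was covered over 420 and 835 bp with pileups of 11 and 12, across the start and the printed promoter, and its nearest neomycin peaks were 96888 and 234778 bp away. Prrx2, a homeobox factor, had pileups of 13 and 12, Emilin2, a matrix glycoprotein, 13 and 11, and Sp7, an osteoblast factor, 14 and 9. The list as a whole held 1 and 1 peaks with neomycin and 8 and 7 without, at 4.55%, 4.55%, 27.3% and 27.3% of its 22 genes. These sums include the untreated-only regions of the 4 genes above, so they partly restate the rule. Supporting and progenitor cell markers held 34 and 37 peaks with neomycin and 50 and 33 without. Markers of melanocytes and stria held 7 and 8 with neomycin and 5 and 4 without. On the mesenchyme list, Col1a1, Col1a2, Col3a1, Pdgfra, Dcn, Lum and Postn had no peak at an end in any library. In these bulk libraries fewer cells of a type and less of the mark per cell cannot be told apart. The part of mesenchymal or hair cells in the untreated-only regions was not tested. Twist1 was outside the set because the peaks of the untreated libraries there did not overlap each other. Of the other cell types, neurons had 1 gene of 9 (Nefm), and glia (of 4), melanocytes and stria (of 7), endothelium (of 3) and macrophages (of 1) had 0.

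In the Wnt pathway 12 of 56 genes (21.4%) had an untreated-only region. They included the ligands Wnt4, Wnt11 and Wnt16, their carrier Wls, the receptor-removing ligase Znrf3, the transducer Dvl1 with its antagonist Nkd2, the coactivators Ctnnb1 and Pygo1, the DNA-binding partner Tcf7 and the targets Myc and Sp5. Ctnnb1, which encodes beta-catenin, was covered over 436 and 380 bp just inside its start with pileups of 14 and 10, and the nearest peak of neomycin replicate 2 lay 1006 bp away. Pileups were 17 and 14 at Dvl1, with neomycin peaks 115 and 262 bp away, and 14 and 12 at Tcf7, with none within 49772 bp. At Wnt4 they were 14 and 11, with none within 110082 bp. Of the 12 genes, 5 had no neomycin peak in the gene or within 1 kb of it, and the rest had such a peak. This is near the 44.8% without one among all genes with an untreated-only region.

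BMP, activin and TGF-beta signalling had 12 of 39 genes (30.8%). The ligands Bmp2 and Inhbb, the antagonist Nog, the receptors Acvr1 and Acvr2a, the signal carriers Smad1, Smad2, Smad4 and Smad9, the inhibitors Smad6 and Smurf2 and the target Id3 were among them. Smad1 was covered over 860 and 395 bp with pileups of 18 and 16, and its nearest neomycin peak was 103364 bp away. Smurf2, a ubiquitin ligase that removes receptors and Smads, was covered over 1024 and 837 bp with pileups of 18 and 13. Nog had pileups of 17 and 12 but neomycin peaks 36 and 100 bp away, and Smad2 had 14 and 16 with neomycin peaks 355 and 188 bp away. In 3 of the 12 genes no neomycin peak was found in the gene or within 1 kb, against 44.8% of all genes with an untreated-only region. No gene of this list had a neomycin-only region, against 4.46% of all genes. The same held for the FGF, Hippo and Hedgehog lists, and few are to be looked for in lists of this size.

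The remaining signalling lists were smaller. The Hippo pathway had 6 of 22 genes (27.3%): the kinase activators Mob1a and Sav1, the cadherin Fat4, the scaffold Wwc2 and the DNA-binding factors Tead1 and Tead4. Sav1 had pileups of 12 and 17 and Tead1 15 and 9, with no neomycin peak within 93745 and 250726 bp. Notch signalling had 5 of 31 (16.1%), among them the ligand Dll4, the receptor Notch4, the gamma-secretase subunit Aph1a and the target Hey2, and FGF signalling had 4 of 28 (14.3%), with the ligand Fgf2, the receptors Fgfr2 and Fgfr3 and the inhibitor Spred2. These last 2 shares were close to that of all genes. Fgf2 had pileups of 20 and 10 and Fgfr2 17 and 10. Hedgehog signalling had 1 of 14, the receptor Ptch1.

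Families of transcription factors differed in their shares. Krüppel-like and Sp factors, which bind GC boxes, had 7 of 19 genes (36.8%): Klf3, Klf7, Klf14, Sp1, Sp3, Sp5 and Sp7. Of these, 5 had no neomycin peak in the gene or within 1 kb, against 44.8% of all genes with an untreated-only region. Klf7 had pileups of 15 and 12 with no neomycin peak within 409752 bp, and Sp1 12 and 10 with none within 6678 bp. Forkhead factors had 10 of 28 (35.7%), among them Foxm1, a cell cycle factor, with 16 and 16, and Foxn3 with 14 and 14. The nearest neomycin peaks lay 847 and 650 bp from the Foxn3 region. Homeobox and paired box factors had 7 of 48 (14.6%) and C2H2 zinc finger proteins 41 of 337 (12.2%), near the share of all genes. None of the 14 Sox factors with a gene-end region had an untreated-only one.

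Among chromatin and transcription genes, Polycomb complexes had 6 of 27 (22.2%): Eed and Suz12 of the methyltransferase complex, and Phc3, Cbx6, Yaf2 and Rybp of the ubiquitin ligase complexes. Phc3 had pileups of 18 and 14 with no neomycin peak within 26516 bp. Enzymes and readers of the H3K4 mark had 1 of 28 (3.57%), Wdr5, a core subunit of the SET1 and MLL complexes, with pileups of 19 and 13 and neomycin peaks 242 and 211 bp away. Pausing and elongation factors of RNA polymerase II had 7 of 41 (17.1%), led by Iws1, and Nelfcd, a subunit of the pausing complex NELF, with pileups of 22 and 15. Cdk9, the kinase that releases paused polymerase, had 15 and 10, with neomycin peaks 137 and 170 bp away.

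Several lists of housekeeping genes had shares below that of all genes. Cytosolic ribosomal proteins had 6 of 74 (8.11%), respiratory chain and ATP synthase genes 9 of 87 (10.3%) and aminoacyl-tRNA synthetases 2 of 33 (6.06%). Proteasome subunits had 2 of 41 (4.88%), DEAD and DEAH box helicases 2 of 44 (4.55%) and DNA repair genes 3 of 53 (5.66%). The DNA repair genes were Xrcc2 and Lig4, of break repair, and Ung, of base excision repair. Neomycin-only regions were found at 7 of the 53 genes of that list, against 4.46% of all genes. They were also found at 5 of the 33 aminoacyl-tRNA synthetases and 6 of the 74 cytosolic ribosomal proteins. The list of translation initiation and elongation factors went the other way, with 13 of 61 (21.3%). It was built by gene symbol, and Eif4ebp2, Eif2ak2 and Eef1e1, which are not such factors, were among the 13. Higher shares were also found for ubiquitin-specific proteases, with 9 of 39 (23.1%), led by Usp3 (pileups 18 and 17) and Usp15 (21 and 15). Rab GTPases of vesicle traffic had 10 of 47 (21.3%). Mitochondrial ribosomal proteins had 11 of 68 (16.2%), of which Mrpl33 was highest with 18 and 18.

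Lists of apoptosis, stress, autophagy and cell cycle genes had shares from 11.1% to 18.2%. Genes of p53 and apoptosis had 5 of 31 (16.1%), with Bid, Pmaip1, Bcl2, Bmf and Birc3, and stress and immediate early genes 6 of 46 (13.0%), with Ier2, Atf5, Gpx1, Ern1, Hspa5 and Fosl2. Bcl2, which blocks apoptosis, had pileups of 18 and 8, and Pmaip1, which promotes it, 12 and 11. Autophagy and lysosome genes had 8 of 44 (18.2%), with Sqstm1, an autophagy receptor, at 16 and 15 and Lamp1, a lysosomal membrane protein, at 22 and 12. Cell cycle genes had 5 of 45 (11.1%): Ccne1, E2f1, E2f6, Rbl1 and the inhibitor Cdkn2c.

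**Figure D5:**
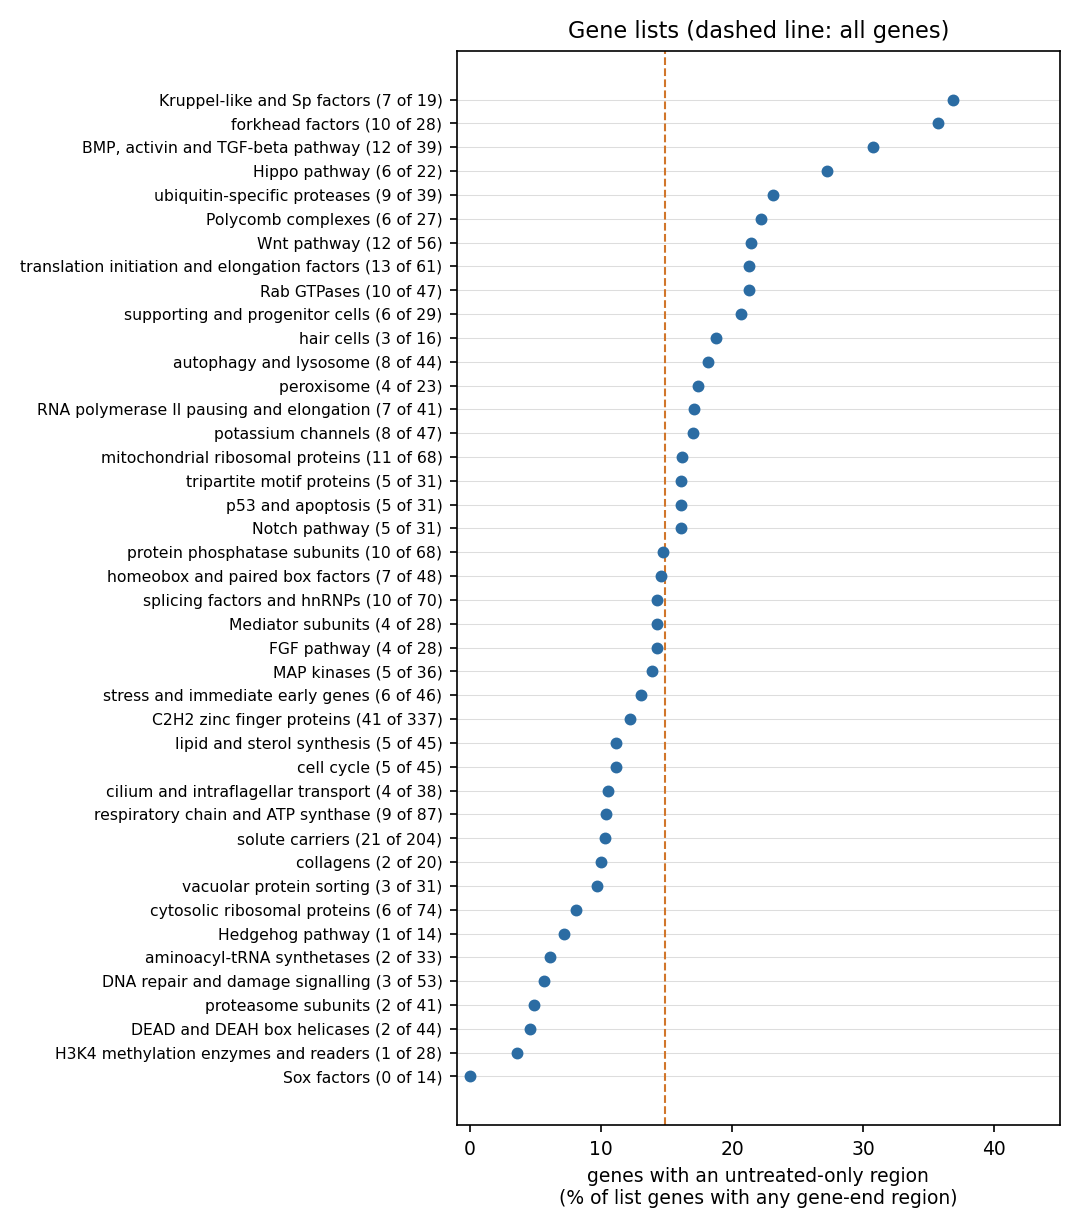
Percentage of genes with an untreated-only region among list genes with any gene-end region (horizontal axis), 1 dot per list with its counts in brackets, for lists with at least 14 such genes. The dashed line is the 14.9% of all genes; Krüppel-like and Sp factors (36.8%) lie highest and Sox factors (0 of 14) lowest.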

How the data were processed

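Chromatin of sorted Lgr5+ cells was immunoprecipitated and sequenced, and the deposited files analysed here are 4 peak lists, 1 per H3K4me3 library. The submitters' processing notes name CASAVA 1.4, Bowtie2, MACS2, deepTools and the build mm10, without their roles. Per the file headers, each list gives start, end, length and summit, the summit's pileup signal, −log10 p-values and q-values, and the ratio (fold enrichment) over local background as the authors' caller computed them. Peaks were thus called per library. No source used here states read totals, so depth is unknown, and no interval on a height can be given.

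Peaks on chromosomes 1 to 19 and X that overlapped by 1 bp were merged, and gene ends came from a RefSeq gene table (GRCm38.p6). Covered length is the sum of peak lengths of a library in a region, and pileup that of its highest peak. Python 3.11.15, pandas 2.3.3 and numpy 2.4.6 were used, and the merging was tested on simulated data. Intervals of shares and ratios are for 95% and cover counting error only. The regions, gene lists and genes to be named were chosen with earlier results of these data known.

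Genes were named by a rule: the 12 regions with the highest percentile of pileup in their weaker library, the 6 with the greatest covered length in the library where it was shorter, 3 at each limit of the definition, up to 6 genes per list by the same percentile, the 6 with most peaks, the 6 farthest from a neomycin peak, and Atoh1, Ctnnb1, Eya1, Coch and Twist1. Other genes are named as members of a list. Some genes that the rule picks are not reported here. Alternatives to the distance, threshold, merging and libraries are given at the end.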

Additional observations from a re-analysis of the deposited data

How the results depend on the processing

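The number of untreated-only gene-end regions, 1573, was within 1.5 times under a gene-end window of 0.5 or 2.5 kb, a −log10 q of at least 10, a merging overlap of 50 bp and lists of equal length. It became 3299 when a −log10 q of 5 or more was asked of every peak, 906 with peaks up to 500 bp apart merged, 850 with no peak of the other group within 1 kb and 815 within 2.5 kb. Leaving out 1 library in turn gave 2510 to 4181. The share of gene-end regions that were untreated-only, 9.82%, moved more than the count at some settings. It was 25.3% and 21.0% at a −log10 q of at least 5 and 10, and 10.7% with lists of equal length. With merging over 500 bp the share was 8.42%, and with no peak of the other group within 1 and 2.5 kb 5.31% and 5.09%. With 1 library left out it was 16.5% to 25.4%. The ratio of untreated-only to neomycin-only regions, 3.71, stayed above 1 in each of these alternatives. It was 4.17 with a window of 0.5 kb, 37.1 at a −log10 q of at least 5, 1158 (against a single neomycin-only region) at 10, 3.09 with merging over 500 bp, 5.91 with an overlap of 50 bp, and 5.21 and 5.33 with no peak of the other group within 1 and 2.5 kb. Leaving out 1 library in turn gave 1.13 to 6.96. Losing a library loosens the definition by construction; the cause of the other changes was not tested. Median covered lengths ranged from 264 to 510.5 bp in untreated replicate 1 and from 305 to 488.5 bp in replicate 2, and median pileups from 13 to 17 and from 10 to 14. Median summit distances from the nearest gene end ranged from 252 to 318 bp and from 272 to 323 bp. No paired analysis was possible because no test was fitted. The unknown depth limits what the absence of a neomycin peak shows: it says that no peak was listed, not that the mark was absent.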
